A study of Homo sapiens with 20 samples.

Results

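The extracellular matrix list held 40 genes: 5 fibrillar collagens, 3 collagens of basement membranes, 6 other collagens, 12 glycoproteins, 5 proteoglycan and hyaluronan genes, 5 matrix enzymes and inhibitors, and 4 integrins. A chromatin loop was taken to belong to a gene when 1 of its 2 anchors, each about 5 kb long, lay within 3 kb of an annotated start of the gene in the hg19 build. By this rule 4756 of the 572000 anchor pairs listed in any of 4 glioma lines belonged to the list, at 39 of its 40 genes. THBS2, which encodes a thrombospondin, had no listed pair in any line. Across the genome, 10019 of 20149 protein-coding genes had at least 1 listed pair.

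The study asked how the cohesin subunit gene STAG2 shapes genome folding and gene expression in glioblastoma. Hi-C, a method that sequences ligated DNA ends to count contacts between distant sites, was run on 2 human glioma cell lines with naturally occurring STAG2 mutations and on 1 gene-edited derivative of each. H4 and 42MGBA are labelled STAG2-mutant, and each derivative, H4 88-1 from the former and 42MGBA 53-1 from the latter, is labelled STAG2-WT because its mutant allele was corrected by gene editing. Each line had 2 Hi-C replicates, which were pooled before the loop lists were made. With a single corrected line per system, any other difference between that line and its parent cannot be told apart from the correction itself, and H4 and 42MGBA differ in much besides STAG2. The lists hold loop strengths and no expression values, so neither the brain origin given in the labels nor a mesenchymal state could be checked, and matrix gene expression is not analysed here.

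The extracellular matrix is the meshwork of collagens, glycoproteins and proteoglycans that cells secrete and hold with integrins. In the brain it is rich in hyaluronan and proteoglycans, and fibrillar collagens are largely restricted to vessels and meninges. Gliomas of the mesenchymal class are known for high expression of collagens, fibronectin and other matrix genes. Cohesin extrudes chromatin loops until it meets CTCF bound to DNA, and loops of this kind can bring a gene start near to distant regulatory DNA.

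Each list held the 300000 strongest anchor pairs of its line. The lowest strength was 4.14 in H4 and 4.44 in H4 88-1, against 4.49 in 42MGBA and 4.28 in 42MGBA 53-1, and the medians lay between 5.17 and 5.54. A pair missing from a list was set to that list's lowest strength, so a ratio against such a pair is a bound. With 1 pooled list per line there was no replicate error, no SD and no test between lines, and the number of reads behind a pair is unknown. In each comparison the 100000 strongest pairs of both lines were merged and 1 line was regressed on the other through the origin. A pair was called higher or lower in the first-named line when the z-score of its residual lay beyond the normal two-sided cutoff of 0.05, which ranks a pair against all merged pairs of that comparison and is no test against error. Adjacent pairs often share an anchor, so they are not independent observations.

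Upstream DNA is shown for 4 genes whose loops differed widely between lines or systems and on which many of the following values turn: COL1A2, COL6A2, THBS1 and TIMP3. Each run holds the 250 bases before the outermost annotated start, from the GRCh37 genome (hg19), written 5′ to 3′ on the strand of the gene, and none overlaps an annotated exon. Capitals mark GGAATG, which TEAD factors bind, searched on both strands.
COL1A2, chr7:94023957-94024206, plus strand: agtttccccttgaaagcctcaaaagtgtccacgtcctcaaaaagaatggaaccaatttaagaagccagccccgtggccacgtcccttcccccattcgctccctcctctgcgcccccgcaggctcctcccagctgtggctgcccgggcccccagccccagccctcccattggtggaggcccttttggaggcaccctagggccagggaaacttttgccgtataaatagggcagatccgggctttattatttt
COL6A2, chr21:47517776-47518025, plus strand: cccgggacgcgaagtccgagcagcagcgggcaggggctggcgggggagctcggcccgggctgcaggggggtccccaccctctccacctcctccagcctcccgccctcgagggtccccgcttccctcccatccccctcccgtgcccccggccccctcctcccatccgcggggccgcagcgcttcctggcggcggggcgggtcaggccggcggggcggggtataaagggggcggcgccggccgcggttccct
THBS1, chr15:39873030-39873279, plus strand: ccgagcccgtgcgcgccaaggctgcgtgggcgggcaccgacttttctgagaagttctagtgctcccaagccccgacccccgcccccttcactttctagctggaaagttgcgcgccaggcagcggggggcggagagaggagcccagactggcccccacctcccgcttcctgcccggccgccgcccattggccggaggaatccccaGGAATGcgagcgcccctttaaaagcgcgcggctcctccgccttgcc
TIMP3, chr22:33197441-33197690, plus strand: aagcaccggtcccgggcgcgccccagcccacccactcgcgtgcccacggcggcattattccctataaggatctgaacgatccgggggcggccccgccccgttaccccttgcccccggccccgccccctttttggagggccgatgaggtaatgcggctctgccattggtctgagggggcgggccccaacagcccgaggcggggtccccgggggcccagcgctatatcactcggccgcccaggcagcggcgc
THBS1 held 1 match of GGAATG, whereas the stretches of COL1A2, COL6A2 and TIMP3 held none. Over the list, GGAATG was present before 5 of 40 (12.5%), namely COL1A1, THBS1, DCN, LUM and ITGA5, against 11.0% of 20136 protein-coding genes. A match is a run of letters and does not show that a factor was bound.

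Matrix genes had more listed loops in the 42MGBA lines than in the H4 lines. The number of listed pairs at the 40 genes was 1561 in H4 and 1679 in H4 88-1, against 3220 in 42MGBA and 3487 in 42MGBA 53-1, although every list had the same length. The median per gene was 18.5, 22.5, 36.5 and 41.5 listed pairs in the same order, while for all protein-coding genes with a listed pair it was 6, 6, 5 and 5. Both 42MGBA lines listed more pairs than both H4 lines at 22 of 40 matrix genes (55%), against 22.2% of all genes. The opposite order was found at 2 genes (5%), against 28.4% of all genes.

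Every role contributed to this difference. Fibrillar collagens had 387 listed pairs in H4 and 351 in H4 88-1, against 909 in 42MGBA and 788 in 42MGBA 53-1. The 12 glycoproteins had 508, 594, 1001 and 1164 in that order, and the 4 integrins had 29, 36, 71 and 95. Proteoglycan and hyaluronan genes were the closest between systems, at 86, 107, 119 and 125 listed pairs.

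Single genes differed far more than their groups. COL6A1 and COL6A2 encode chains of collagen VI, which forms beaded filaments around cells. COL6A1 had 0 listed pairs in H4 and 1 in H4 88-1, against 117 in 42MGBA and 174 in 42MGBA 53-1. COL6A2 had 0, 4, 99 and 144. FBN1, which encodes the microfibril protein fibrillin-1, had 16 and 14 in the H4 lines against 188 and 219 in the 42MGBA lines. LAMC1, the gene of the laminin gamma 1 chain, had 0, 1 and 3 listed pairs in H4, H4 88-1 and 42MGBA and 110 in 42MGBA 53-1. The 2 genes listed more often in both H4 lines were LAMB1, the gene of the laminin beta 1 chain, with 61, 34, 0 and 9 pairs, and VCAN, the gene of the proteoglycan versican, with 41, 29, 6 and 11.

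A few members were listed in 2 lines or fewer, with small numbers of pairs. LOX, which encodes a collagen crosslinking enzyme, had 1 pair in 42MGBA and 2 in 42MGBA 53-1 and none in the H4 lines. ITGA2, the gene of a collagen-binding integrin chain, had 2 and 6 in the 42MGBA lines and none in the H4 lines. BGN, the gene of the proteoglycan biglycan, was listed in H4 88-1 only with 7 pairs, and FBN2, the gene of fibrillin-2, in H4 88-1 only with 3. COL8A1, a short-chain collagen gene, was listed in the STAG2-mutant lines, with 1 pair in H4 and 5 in 42MGBA, and in neither corrected line.

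**Figure D1:**
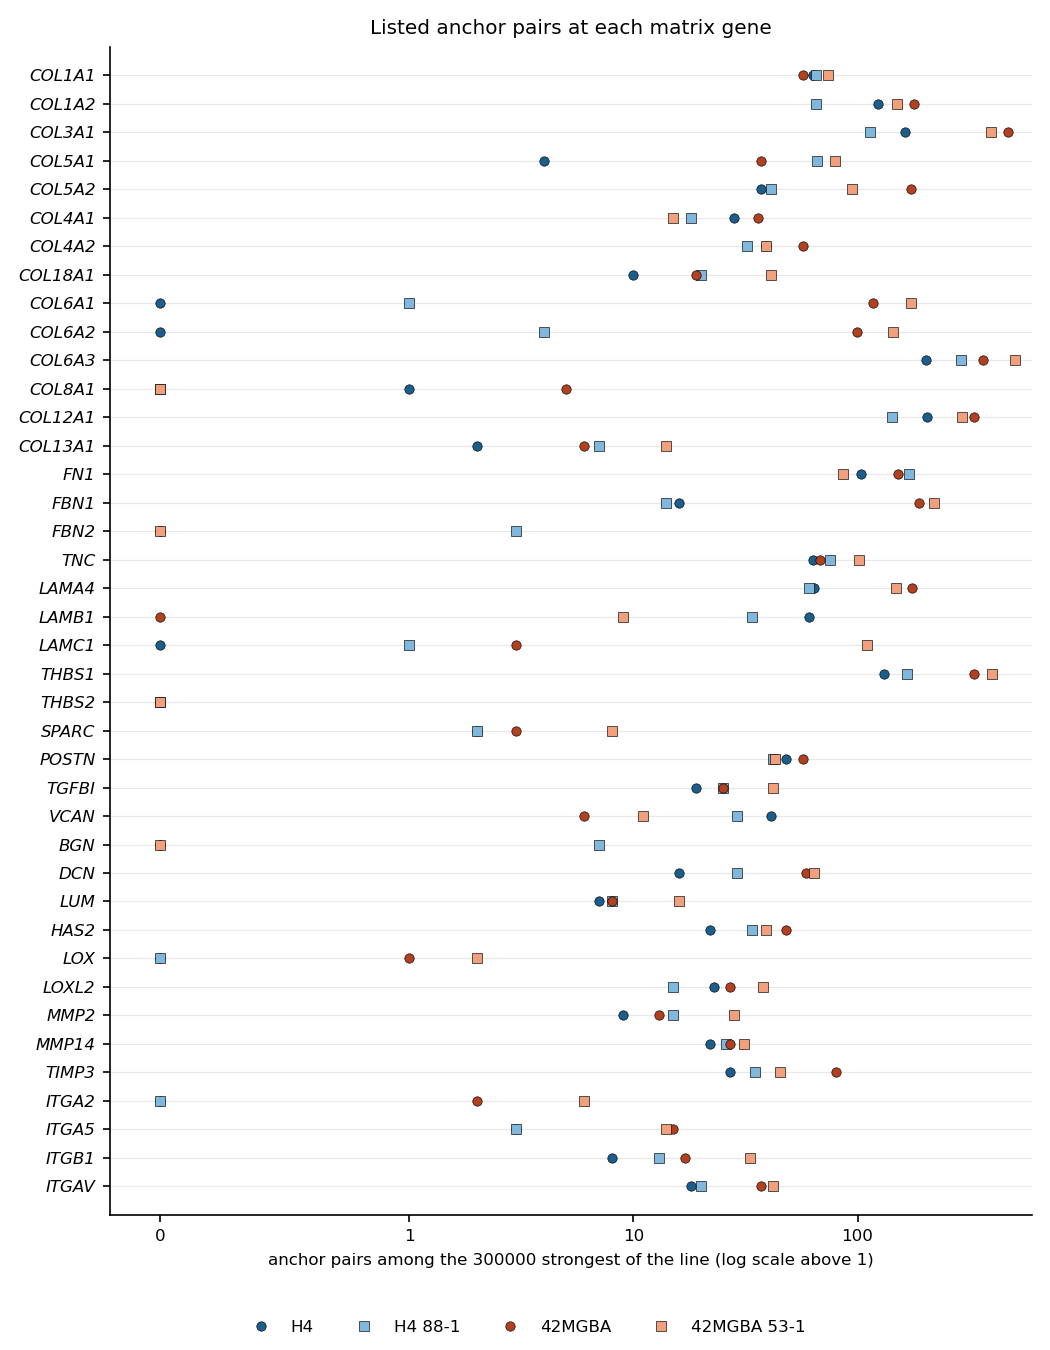
Number of anchor pairs at each of the 40 matrix genes among the 300000 strongest pairs of each line, on an axis that is logarithmic above 1 and linear from 0 to 1; circles are STAG2-mutant lines and squares corrected lines. Both 42MGBA lines lie to the right of both H4 lines at 22 genes, while LAMB1 and VCAN show the opposite order.

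Loop strength at the matrix genes was higher in the 42MGBA lines as well. In 42MGBA against H4, 1345 merged pairs belonged to the list, and their median log2 ratio was 0.62, against 0.10 over all 149005 merged pairs. In 42MGBA 53-1 against H4 88-1, the median was 0.45 over 1579 pairs, against -0.08 over all 151046. Of the matrix pairs, 542 were missing from the H4 list in the first comparison and 699 from the H4 88-1 list in the second, so both medians rest in part on bounds. Without such pairs the medians were 0.39 and 0.20, and with all 300000 pairs of each list they were 0.31 and 0.13, against 0.11 and -0.06 over all pairs. All 7 roles had positive medians in both comparisons, from 0.37 for basement membrane collagens to 0.66 for fibrillar collagens between the mutant lines, and from 0.08 for enzymes and inhibitors to 0.48 for the collagens of other types between the corrected lines. The ratio was above 0 for 84.5% and 79.1% of the matrix pairs, against 54.4% and 46.2% of all pairs. These shares rest in part on missing pairs too, whose direction is fixed by the way they were set. The 542 and 699 pairs count above 0, while 55 and 33 matrix pairs missing from the 42MGBA lists count below 0. Over all pairs, 22479 and 24111 were missing from the H4 lists, and 22421 and 26699 from the 42MGBA lists.

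Calls went the same way. In 42MGBA against H4, 81 of 1345 matrix pairs (6.02%) were called higher in 42MGBA, where 2.11% of all pairs were, and 17 (1.26%) were called lower, where 1.93% of all pairs were. In 42MGBA 53-1 against H4 88-1, 87 of 1579 (5.51%) were called higher, against 1.92% of all pairs, and 3 (0.19%) were called lower, against 2.09%. The higher pairs lay at 7 of 31 matrix genes with a merged pair in the first comparison, against 299 of 5068 protein-coding genes. In the second they lay at 8 of 33, against 270 of 5194. Matrix genes also had more listed pairs per gene, as given above, so these shares of genes are not on an equal footing. COL1A2 alone held 45 of the 81 higher pairs and 28 of the 87. When called pairs within 10 kb of each other were joined, 12 and 14 separate places remained. With the outermost start of each gene alone, 42 of 588 pairs (7.14%) and 48 of 659 (7.28%) were called higher. Of the 979 matrix pairs present in both comparisons, 39 were called higher in both, and the share of all pairs called in both is not given here.

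COL1A2, which encodes the alpha 2 chain of type I collagen, carried the strongest loops of the list in the 42MGBA lines, while in the H4 lines COL3A1 did. The gene lies at chr7:94024207-94060539 on the plus strand, behind the upstream stretch printed above. Its strongest pair joined the start to a place 102 kb upstream at chr7:93921800-93926659, outside any protein-coding gene, and showed strengths of 14.9 in H4 and 16.4 in H4 88-1, against 29.2 in 42MGBA and 28.0 in 42MGBA 53-1. Both 42MGBA lines thus stood above both H4 lines, with a log2 ratio of 0.97 between the mutant lines (z = 5.13) and 0.77 between the corrected lines (z = 5.33).

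Over the 129 strongest pairs of COL1A2, mean strength was 6.16 in H4 and 5.99 in H4 88-1, against 10.8 in 42MGBA and 9.0 in 42MGBA 53-1. The median log2 ratio was 0.77 in 42MGBA against H4, with 115 of 122 pairs above 0, and 0.72 in 42MGBA 53-1 against H4 88-1, with 99 of 101. Of these pairs 67 and 46 were missing from 1 of the 2 lists, so their direction was fixed by the way missing pairs were set. Without them the medians were 0.57 and 0.68, and with all 300000 pairs of each list 0.39 and 0.44. The gene also formed 47 short pairs within and just around its own body, and these were missing from both H4 lists. Of the 45 pairs called higher in 42MGBA, 16 used the outermost start and 29 used starts inside the gene, and 26 were missing from H4. Over all merged pairs of chromosome 7 the between-system medians were -0.42 and -0.41, opposite in sign to those of COL1A2.

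COL1A1, the gene of the partner chain of type I collagen on chromosome 17, was higher in the H4 lines. Its strongest pair spanned 96.8 kb at strengths of 16.0 in H4 and 16.0 in H4 88-1, against 8.98 in 42MGBA and 12.4 in 42MGBA 53-1. Between the mutant lines the strength in 42MGBA was 0.56 of that in H4 (z = -2.71), and between the corrected lines the ratio was 0.77 (z = -0.80). Over the gene's pairs the median log2 ratio was -0.28 and -0.25 in the 2 between-system comparisons, where the medians of chromosome 17 were -0.39 and -0.58. With all 300000 pairs of each list the first of these medians became 0.015 and the second -0.18.

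COL3A1 encodes the chain of type III collagen, a partner of type I collagen in vessel walls and scars, and COL5A2 a chain of type V collagen, which sits inside type I fibrils. The strongest pair of COL3A1 reached 451 kb to an intron of GULP1, at strengths of 18.3 in H4 and 17.5 in H4 88-1, against 22.2 in 42MGBA and 18.0 in 42MGBA 53-1. At this pair 42MGBA 53-1 lay between the H4 lines, so the systems overlapped. Over all its pairs the gene stood higher in the 42MGBA system, with means of 5.39, 5.37, 8.27 and 6.62, and 7 pairs were called higher in 42MGBA and 1 in 42MGBA 53-1. COL5A2 had means of 4.67, 4.89, 6.96 and 5.25, and none of its pairs was called.

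The collagen VI genes COL6A1 and COL6A2 lie next to each other on chromosome 21, and their strongest loop joined them. That pair, between chr21:47394940-47399863 and chr21:47518203-47522997, spanned 123 kb. It was not among the listed pairs of H4 or H4 88-1 and reached 14.1 in 42MGBA and 14.9 in 42MGBA 53-1. The strength was therefore at least 3.40-fold higher in 42MGBA than in H4 (z = 3.49) and at least 3.35-fold higher in 42MGBA 53-1 than in H4 88-1 (z = 4.26). In all, 42 listed pairs joined the 2 genes over 90.6 to 148 kb, of which 0 were listed in H4 and 1 in H4 88-1, against 37 in 42MGBA and 42 in 42MGBA 53-1.

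All merged pairs of both genes were higher in the 42MGBA system, but setting missing pairs to the lowest strength largely fixed this direction. H4 listed none of them. H4 88-1 lacked 70 of 71 COL6A1 pairs and 69 of 73 COL6A2 pairs, so the following ratios are almost wholly bounds. For COL6A2 the median log2 ratio was 0.92 over 38 pairs between the mutant lines and 0.68 over 73 pairs between the corrected lines. For COL6A1 it was 0.85 over 35 pairs and 0.60 over 71. Calls higher in the 42MGBA system numbered 6 and 13 for COL6A1 and 9 and 14 for COL6A2. Chromosome 21 had between-system medians of 0.36 and 0.34.

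COL6A3, the third collagen VI gene, lies on chromosome 2 and did not follow them. Its strongest pair spanned 248 kb, at strengths of 15.2 in H4 and 10.6 in H4 88-1, against 8.05 in 42MGBA and 7.15 in 42MGBA 53-1. The H4 lines stood above the 42MGBA lines, and the pair was called lower in 42MGBA than in H4 (z = -2.77). Over all 189 pairs of the gene in 42MGBA against H4 the median log2 ratio was 0.48, the opposite direction. That median was 0.03 over the 39 pairs at the outermost start and higher at starts inside the gene.

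COL12A1 encodes collagen XII, which coats type I fibrils, and it showed both directions within 1 locus. A pair reaching 793 kb into a region without protein-coding genes, chr6:75120406-75125382, had strengths of 15.0 in H4 and 10.7 in H4 88-1, against 8.04 in 42MGBA and 5.08 in 42MGBA 53-1. All 4 lines were apart at this pair, with the H4 lines above, and 6 pairs of this place were called lower in 42MGBA and 3 lower in 42MGBA 53-1. Within the gene body, 183 short pairs had mean strengths of 4.15 in H4 and 4.45 in H4 88-1, where nearly all were missing, against 5.94 in 42MGBA and 6.84 in 42MGBA 53-1. In 42MGBA against H4 the median was -0.48 at the outermost start and 0.57 over all 130 pairs.

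Among the glycoproteins, THBS1, which encodes thrombospondin-1, a matricellular inhibitor of vessel growth, had the most calls. The gene starts at chr15:39873280. Its strongest pair, 410 kb upstream at chr15:39462945-39467823, had strengths of 12.5 in H4 and 15.8 in H4 88-1, against 17.3 in 42MGBA and 17.8 in 42MGBA 53-1. The 42MGBA lines were above the H4 lines there, but neither between-system comparison passed the cutoff (z = 1.63 and 1.46). Other pairs did, 9 in 42MGBA against H4 and 25 in 42MGBA 53-1 against H4 88-1, at partners 140 to 410 kb away. Over 264 pairs the mean strength was 5.06 in H4 and 5.85 in H4 88-1, against 7.45 in 42MGBA and 8.36 in 42MGBA 53-1.

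FBN1 had its strongest pair at 63.4 kb, between a start near the 3′ end of the gene and a place beyond that end. It was listed in neither H4 line and had strengths of 7.19 in 42MGBA and 10.7 in 42MGBA 53-1. Between the corrected lines it was at least 2.41-fold higher in 42MGBA 53-1 (z = 2.57), and none of the 5 FBN1 calls of that comparison used the outermost start. FN1, the fibronectin gene, had a strongest pair of 511 kb at strengths of 5.39 in H4 and 6.62 in H4 88-1, against 9.24 in 42MGBA and 6.51 in 42MGBA 53-1. H4 88-1 and 42MGBA 53-1 lay side by side, and the median log2 ratio of FN1 was 0.57 between the mutant lines but -0.40 between the corrected lines.

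LAMB1 and TNC had the lowest glycoprotein medians between the mutant lines. LAMB1 had 4 merged pairs in 42MGBA against H4, all missing from the 42MGBA list and therefore lower by the way missing pairs were set. Its median log2 ratio of -0.39 is thus a bound. Its strongest pair, 102 kb long, had strengths of 5.97 in H4 and 4.51 in H4 88-1 and was not listed in the 42MGBA lines. TNC, which encodes the large glycoprotein tenascin-C, had a median of -0.32 over 15 pairs between the mutant lines and 0.41 over 31 pairs between the corrected lines. The single TNC pair at the outermost start had 0.65 between the mutant lines, so its direction depended on the start. POSTN, the periostin gene, had medians of 0.04 and -0.17, near the medians of all pairs.

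Of the proteoglycan and hyaluronan genes, HAS2, which encodes a hyaluronan synthase, had 2 pairs called higher in 42MGBA than in H4. The stronger of them spanned 378 kb at strengths of 6.13 in H4 and 8.48 in H4 88-1, against 12.2 in 42MGBA and 8.63 in 42MGBA 53-1. Only the mutant lines stood far apart there, at 1.99-fold (z = 2.07), and the corrected lines differed by 1.02-fold. VCAN was lower in the 42MGBA system, with a median log2 ratio of -0.41 over 9 pairs between the mutant lines and -0.71 over 4 pairs between the corrected lines. Its strongest pair of 1200 kb had strengths of 7.70, 8.45, 4.93 and 4.43, so the systems did not overlap. DCN, the gene of the collagen-binding proteoglycan decorin, had means of 4.57, 4.97, 6.64 and 6.49, with the 42MGBA lines above.

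TIMP3, the inhibitor of matrix metalloproteinases, stood apart in 42MGBA alone. The gene starts at chr22:33197691 inside an intron of SYN3, and its strongest pair reached 273 kb to another part of SYN3. Strengths were 9.73 in H4 and 10.9 in H4 88-1, against 18.2 in 42MGBA and 9.68 in 42MGBA 53-1. The first, second and last lines lay close together, and 42MGBA was 1.87-fold above H4 (z = 2.94). Between the corrected lines the ratio was 0.89 (z = -0.09). All 26 TIMP3 pairs were higher in 42MGBA than in H4, 7 of them past the cutoff. Another 7 of the 26 were missing from H4 and so count as higher by the way missing pairs were set. The called pairs were listed in both lines. The median log2 ratio over the 26 was 0.78, where that of chromosome 22 was 0.50.

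The enzymes MMP2, MMP14 and LOXL2 and the integrins ITGA5, ITGB1 and ITGAV had no called pair in any comparison. Each had at most 15 merged pairs in a comparison, where 1.61% to 2.45% of all pairs were called in a given direction. At those shares, numbers this small can hold no call. LOX and the integrin gene ITGA2 had no merged pair, so none of theirs could be called. MMP14, a membrane-bound collagenase, had mean strengths of 5.10 in H4 and 6.06 in H4 88-1, against 6.78 in 42MGBA and 7.14 in 42MGBA 53-1, without overlap between systems. Its median log2 ratio was 0.53 between the mutant lines and 0.27 between the corrected lines. The medians of chromosome 14 were 0.51 and 0.41, so MMP14 did not stand out from its chromosome. ITGA5, a chain of the fibronectin receptor, had means of 4.14, 4.58, 7.17 and 6.62 over 6 pairs, all at starts inside the gene. H4 listed none of the 6, so its value of 4.14 is only the lowest strength of its list. The median log2 ratio of ITGA5 between the mutant lines, 0.80 and the third highest of the list, is thus a bound. The anchor of its strongest pair also holds an exon of ZNF385A, so that pair cannot be assigned to ITGA5 alone.

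Gene by gene, 34 members had a pair among the 100000 strongest of any line, and their mean strengths were compared between systems. Both 42MGBA lines were above both H4 lines at 24 of the 34, against 31.9% of 5970 protein-coding genes. Missing pairs count at the lowest strength of a list, which was 4.49 in 42MGBA, above the 4.14 of H4 and 4.44 of H4 88-1. Near these values lie 2 of the 24, LAMC1 with means of 4.14, 4.44, 4.57 and 6.37, and COL13A1 with 4.14, 4.44, 4.56 and 5.99 over 1 pair. Both H4 lines were above at 3, namely COL1A1, LAMB1 and VCAN, against 31.2% of all genes. The systems overlapped at COL5A1, COL4A2, COL18A1, FN1, POSTN, LUM and TIMP3. The median log2 ratio of the 42MGBA system over the H4 system was 0.29 for the 34 members and -0.02 for all genes.

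**Figure D2:**
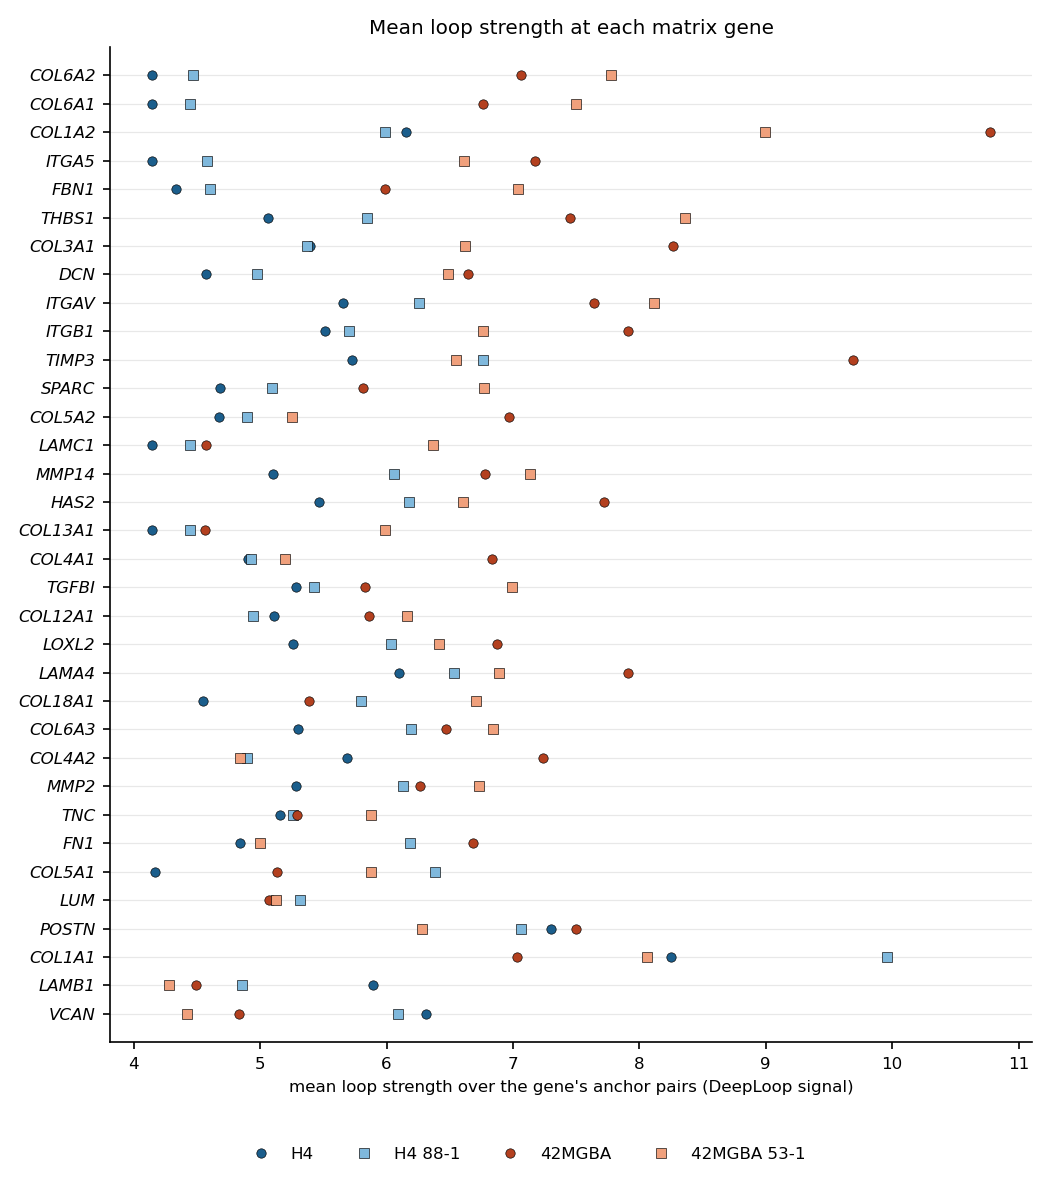
Mean loop strength (DeepLoop signal) of each matrix gene over its pairs among the 100000 strongest of any line, in 4 lines, ordered by the ratio of the 42MGBA system to the H4 system; pairs missing from a list count at its lowest strength, and the axis begins near 4. Both 42MGBA lines lie to the right of both H4 lines at 24 of 34 genes, and COL1A2 in 42MGBA has the highest mean, 10.8.

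Pairs near these genes that did not touch their starts differed in the same direction at most genes. Such pairs were taken within 500 kb of each gene, and 33 genes had pairs of both kinds. The median log2 ratio of the 42MGBA system over the H4 system was 0.30 at the genes and 0.21 around them. The sign was the same at 25 of 33 genes, and the value at the gene exceeded the value around it at 24. Around COL1A2 mean strength was 6.0 in H4 and 6.19 in H4 88-1, against 9.04 in 42MGBA and 8.41 in 42MGBA 53-1, and around COL6A2 it was 4.14, 4.45, 6.48 and 6.92. The loops at the starts of these genes were thus part of loci that differed more widely. Around LAMC1 the H4 lines were higher, with means of 6.80, 7.90, 5.38 and 5.43, while the pairs at LAMC1 itself had means of 4.14, 4.44, 4.57 and 6.37. Whether copy number or other features of the loci had a part in these differences was not tested.

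**Figure D3:**
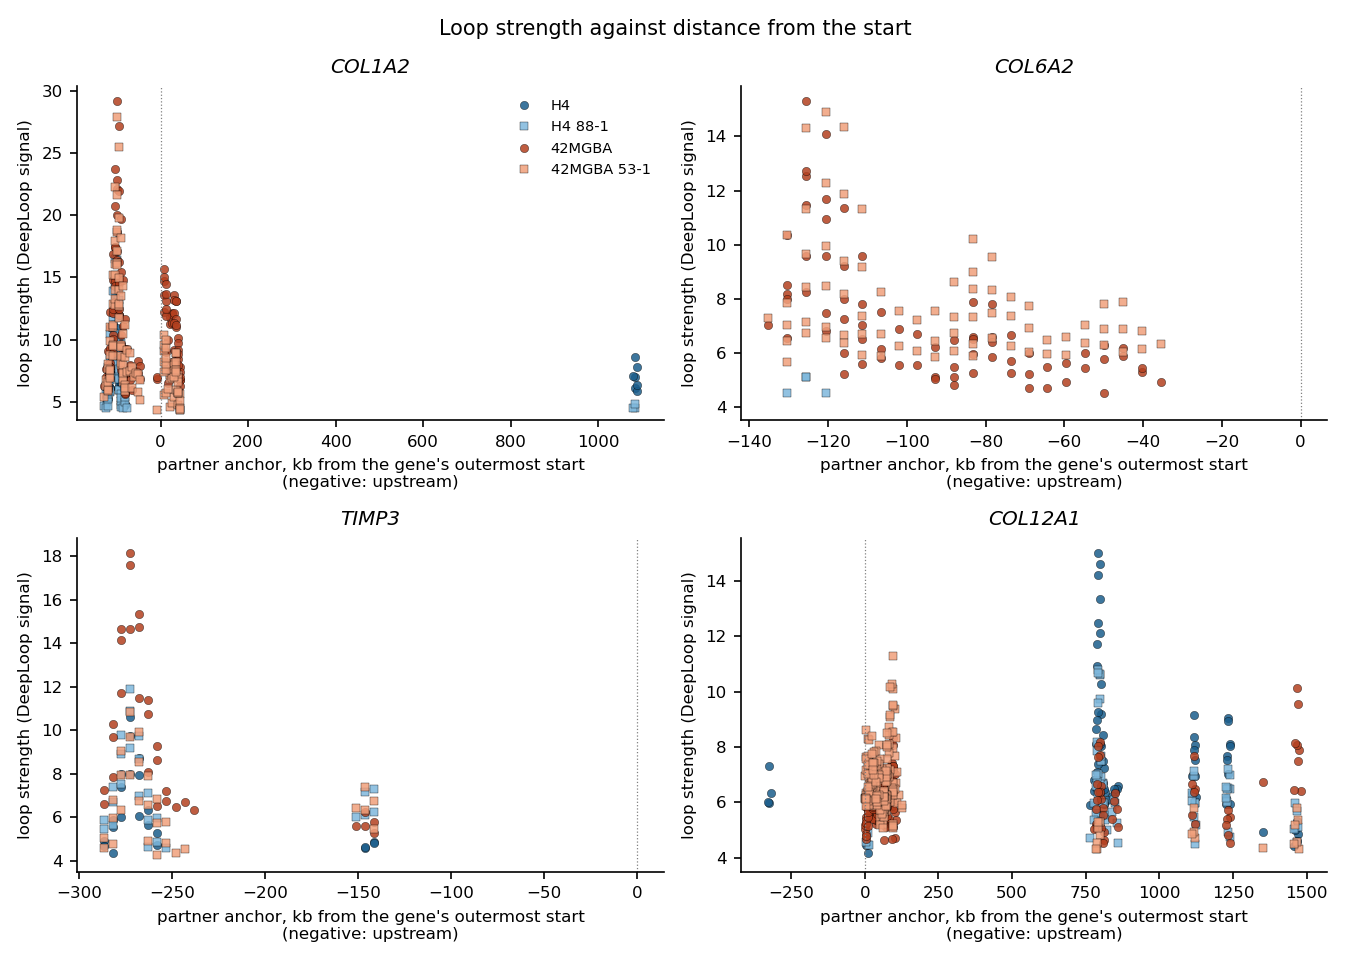
Strength (DeepLoop signal) of each listed pair of COL1A2, COL6A2, TIMP3 and COL12A1 against the distance of its partner anchor from the outermost start, in kb, negative upstream; colours are lines and the vertical axis begins at 3.5. COL1A2 reaches 29.2 in 42MGBA at -100.0 kb, TIMP3 reaches 18.2 in 42MGBA, and COL12A1 reaches 15.0 in H4 at 793 kb.

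The isogenic comparisons ask what differed when STAG2 was corrected. How the shares of called matrix pairs compared with those of all pairs depended on the setting. In H4 88-1 against H4, 20 of 695 matrix pairs (2.88%) were called higher, against 1.94% of all 129476 merged pairs, and 16 (2.30%) lower, against 2.17%. In 42MGBA 53-1 against 42MGBA, 30 of 1784 (1.68%) were called higher, against 1.61% of all 131211, and 35 (1.962%) lower, against 2.45%. When pairs were scored within bins of loop length, the order turned for higher calls in H4 88-1, at 1.87% against 2.20% of all pairs, and for lower calls in 42MGBA 53-1, at 4.48% against 2.53%. With all 300000 pairs of each list, higher calls in 42MGBA 53-1 made up 5.19%, against 2.55% of all pairs. The median log2 ratio was 0.09 over the matrix pairs and 0.07 over all pairs for H4 88-1, and for 42MGBA 53-1 it was 0.02 and -0.11. By role, basement membrane collagens had the lowest medians in both systems, -0.27 and -0.39. Among them COL4A1 and COL4A2 were negative in both, while COL18A1 went the other way, at 0.62 and 0.35. Fibrillar collagens had -0.016 and -0.29, and glycoproteins 0.15 and 0.14.

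In the H4 pair, calls higher after correction lay at COL5A1, COL1A1, THBS1 and COL6A3, and calls lower lay at COL1A2, COL12A1 and COL6A3. COL5A1, which encodes the main chain of type V collagen, held 6 of the 20 higher calls. Its strongest pair, 190 kb long, had strengths of 4.34 in H4 and 10.1 in H4 88-1, against 6.33 in 42MGBA and 6.45 in 42MGBA 53-1. H4 was the lowest of the 4 lines, and H4 88-1 stood 2.33-fold above H4 (z = 3.23), where 42MGBA 53-1 stood 1.02-fold above 42MGBA (z = 0.37). All 13 COL5A1 pairs were higher in H4 88-1 than in H4, with a median log2 ratio of 0.87, the highest of the list, although 9 of the 13 were missing from H4. With all 300000 pairs of each list the median was 0.32, just below the 0.33 of COL18A1. Within 500 kb of the gene, 4 other pairs were listed in H4 and 108 in H4 88-1, against 169 in 42MGBA and 295 in 42MGBA 53-1.

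Higher calls at COL1A1 and THBS1 each lay at 1 place. For COL1A1 they numbered 5, and the strongest, 68.5 kb long, had strengths of 10.3 in H4 and 15.6 in H4 88-1, against 9.79 in 42MGBA and 11.0 in 42MGBA 53-1. H4 88-1 alone stood out there, at 1.51-fold over H4 (z = 2.87). THBS1 had 5 higher calls at 207 to 222 kb, and their median strength was 4.99 in H4 and 9.58 in H4 88-1, against 11.9 in 42MGBA and 13.0 in 42MGBA 53-1. At these pairs H4 was again the lowest line.

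COL6A3 had 4 calls in each direction in the H4 pair. The 4 lower calls lay 243 to 253 kb from the outermost start, with median strengths of 14.0 in H4 and 10.2 in H4 88-1, against 7.35 in 42MGBA and 7.13 in 42MGBA 53-1. The 4 higher calls had medians of 4.81, 8.60, 7.23 and 8.25. H4 was thus the highest line at the first place and the lowest at the others. At COL12A1 the 5 lower calls were all pairs of about 793 kb, with medians of 14.2 in H4 and 10.6 in H4 88-1, against 7.64 in 42MGBA and 4.81 in 42MGBA 53-1.

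COL1A2 had 7 pairs called lower in H4 88-1, over 126 to 1053 kb and none of them at the outermost start. Their median strength was 12.1 in H4 and 9.22 in H4 88-1, against 17.4 in 42MGBA and 16.0 in 42MGBA 53-1. At the outermost start the direction was the opposite, with a median log2 ratio of 0.13 over 17 pairs, while all 52 pairs gave -0.22. The strongest COL1A2 pair itself differed by 1.11-fold in the H4 pair (z = 0.59).

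In the 42MGBA pair, calls higher after correction lay at 8 of 32 matrix genes with a merged pair, against 291 of 4565 protein-coding genes. Of the 30 calls, 10 were at THBS1. Those 10 pairs, of which H4 listed 2, spanned 130 to 338 kb, with median strengths of 4.14 in H4 and 5.57 in H4 88-1, against 8.40 in 42MGBA and 11.2 in 42MGBA 53-1. Their order was the same as in the mean over all THBS1 pairs. The others were 7 pairs at COL12A1, 3 each at COL1A1, COL6A1, COL6A3 and FBN1, 2 at COL6A2 that join it to COL6A1, and 1 at LAMC1. The LAMC1 pair, which spanned 258 kb to NMNAT2, was listed in 42MGBA 53-1 only, at 7.34, and was at least 1.63-fold higher than in 42MGBA (z = 1.97).

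The 7 higher calls at COL12A1 were short, from 4.88 to 72.0 kb. Their median strength was 6.39 in 42MGBA and 10.2 in 42MGBA 53-1, and none was listed in the H4 lines. At the same gene 2 pairs of about 1470 kb were called lower, with medians of 9.85 in 42MGBA and 5.57 in 42MGBA 53-1. For COL6A1 the 3 calls had medians of 10.3 in 42MGBA and 12.7 in 42MGBA 53-1.

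Calls lower in 42MGBA 53-1 were concentrated at COL1A2 and TIMP3. At COL1A2 there were 19, all between 4.52 and 28.9 kb long and within or just around the gene, and neither H4 line listed any of them. Their median strength was 12.2 in 42MGBA and 7.58 in 42MGBA 53-1, and 4 of the 19 used the outermost start. The upstream pair of 102 kb differed little, at 0.96 (z = 1.00). The 35 lower calls of the list had a median length of 28.8 kb, while lower calls over the genome had a median of 483 kb. That shorter median is set by the 19 COL1A2 pairs, which formed 1 place. Lower calls at the other genes spanned 200 to 1475 kb.

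TIMP3 had 11 of its 29 pairs called lower in 42MGBA 53-1, all 263 to 282 kb long and all at 1 place. Median strengths over the 11 were 7.94 in H4 and 8.90 in H4 88-1, against 14.7 in 42MGBA and 7.95 in 42MGBA 53-1. Its strongest pair, described above, was 0.53 in 42MGBA 53-1 relative to 42MGBA (z = -4.28), the largest z-score in size among the matrix pairs of the isogenic comparisons. The isogenic medians of chromosome 22 were 0.34 for H4 88-1 and -0.29 for 42MGBA 53-1, and pairs around TIMP3 had means of 5.02 and 5.70 in the H4 lines, against 8.07 in 42MGBA and 5.61 in 42MGBA 53-1.

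The partner anchor of this TIMP3 loop, at chr22:32922827-32927659 in SYN3, held a match of the CTCF core motif, which is printed because it lies at the loop with that z-score. The run is from GRCh37, within an intron, and capitals mark the match.
TIMP3 partner anchor, chr22:32925074-32925133, plus strand: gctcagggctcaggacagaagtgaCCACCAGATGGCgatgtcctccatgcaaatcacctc
The match is on the plus strand and so points towards TIMP3, and the anchor at the TIMP3 start held no match. The motif was found in 4 of 182 anchors at matrix gene starts (2.20%) and in 21 of 606 of their partner anchors (3.47%), against 5.31% of all 62843 merged anchors. Facing matches in both anchors occurred at 2 of 1945 merged matrix pairs (0.10%), against 0.35% of all. Neither anchor of the strongest pairs of COL1A2, COL6A1, COL6A2, THBS1 and COL12A1 held a match.

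**Figure D4:**
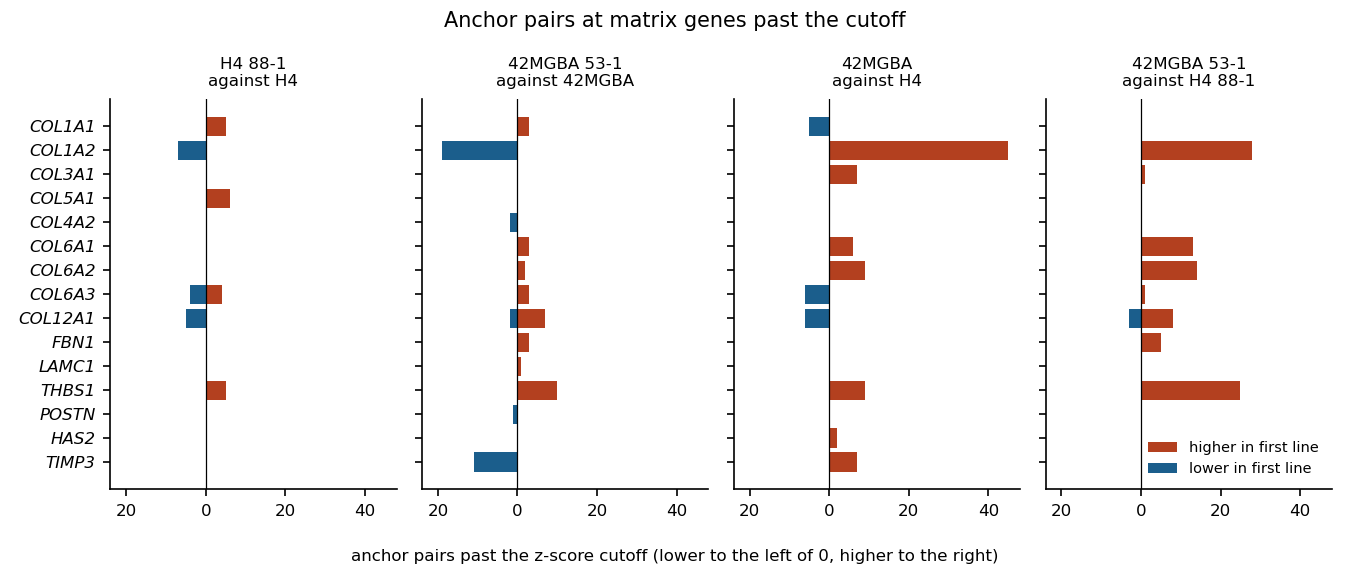
Number of anchor pairs past the z-score cutoff at each matrix gene with at least 1 call, in the 4 comparisons; bars to the right are pairs higher in the first-named line and bars to the left pairs lower in it, counted from 0. COL1A2 has 45 and 28 higher pairs between systems and 7 and 19 lower pairs in the corrected lines.

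The remaining calls of the 42MGBA pair were 2 lower pairs at COL4A2 and 1 at POSTN. COL4A1 and COL4A2 encode the chains of the common type IV collagen of basement membranes and are transcribed in opposite directions. The 2 COL4A2 pairs used starts inside the gene. The stronger, 200 kb long and reaching into COL4A1, had strengths of 6.02 in H4 and 5.36 in H4 88-1, against 8.57 in 42MGBA and 4.60 in 42MGBA 53-1. It was 0.54 in 42MGBA 53-1 relative to 42MGBA (z = -2.06). Of 25 COL4A2 pairs 24 were lower, with a median log2 ratio of -0.62, the lowest of the list, and the median of chromosome 13 was -0.27. The POSTN pair of 490 kb had strengths of 9.71, 9.72, 11.8 and 7.37.

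Most matrix genes had small and varied differences in the 2 isogenic pairs, which share no list. Of 23 genes with at least 3 merged pairs in both, 10 had positive medians in both, 5 negative medians in both, and 8 had opposite signs. Positive in both were COL1A1, COL5A1, COL18A1, COL6A3, FBN1, THBS1, TGFBI, MMP2, MMP14 and ITGAV, although with the outermost start alone COL6A3 became -0.061 in the H4 pair and TGFBI -0.45 in the 42MGBA pair. COL18A1, whose product releases the fragment endostatin, had medians of 0.62 and 0.35 with every pair above 0 and no call. Negative in both were COL1A2, COL3A1, COL5A2, COL4A2 and POSTN. For COL1A2 the medians were -0.22 and -0.18, the first of which became 0.13 with the outermost start alone, and for COL4A2 they were -0.34 and -0.62.

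Of the 534 matrix pairs merged in both isogenic comparisons, 3 were called higher after correction in both systems, out of 17 and 8 higher calls. They were 1 pair of COL1A1 and 2 of THBS1. The COL1A1 pair, 63.6 kb long, had strengths of 10.3 in H4 and 14.9 in H4 88-1, against 9.13 in 42MGBA and 11.8 in 42MGBA 53-1. The stronger THBS1 pair, 212 kb long, had 4.99 and 10.5 in the H4 system and 12.4 and 14.5 in the 42MGBA system. None was called lower in both, out of 14 and 13 lower calls. The share of all pairs called in both systems is not given here, so these counts have no background.

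**Figure D5:**
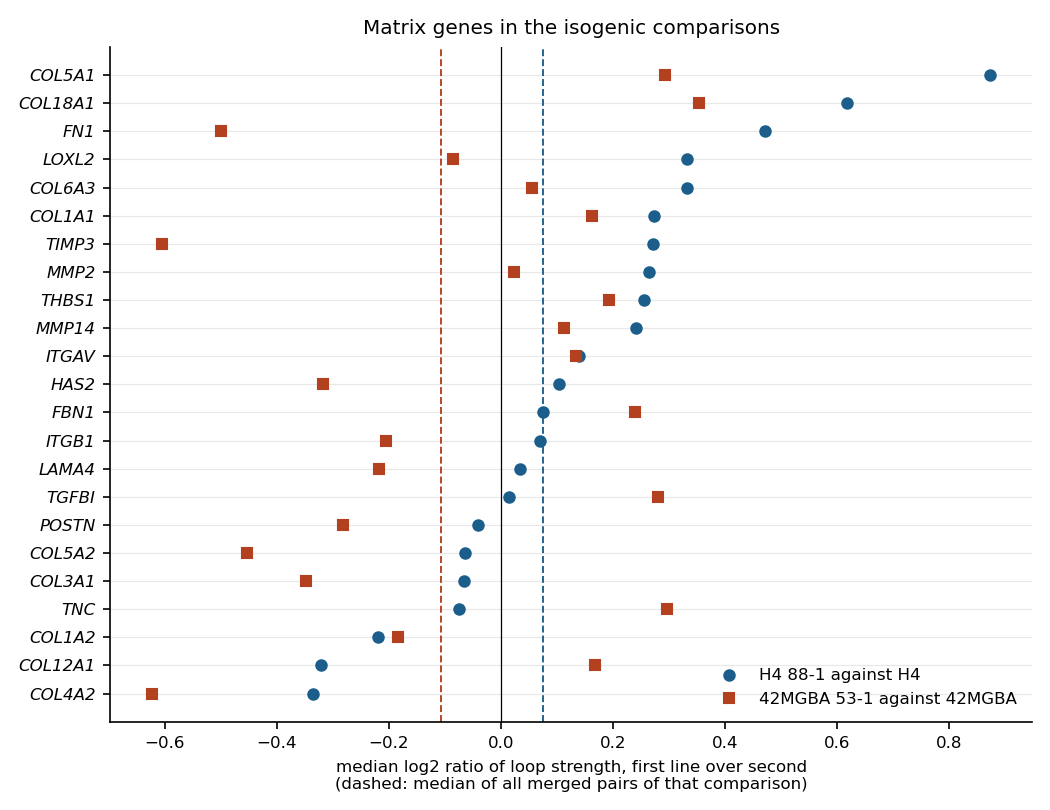
Median log2 ratio of loop strength for the 23 matrix genes with at least 3 merged pairs in both isogenic comparisons, corrected line over mutant line; circles are the H4 pair, squares the 42MGBA pair, and dashed lines the medians of all merged pairs, 0.07 and -0.11. COL5A1 has the highest value in the H4 pair, 0.87, and FN1 and TIMP3 have circles right of 0 and squares left of it.

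FN1 and TIMP3 had the most opposed values. The median of FN1 was 0.47 in the H4 pair, with 39 of 39 pairs above 0, and -0.50 in the 42MGBA pair, with 47 of 48 pairs below 0. No FN1 pair passed the cutoff. Mean strength at FN1 was 4.84 in H4 and 6.19 in H4 88-1, against 6.68 in 42MGBA and 5.00 in 42MGBA 53-1, and around the gene it was 5.20, 6.62, 6.41 and 5.05 in the same order. At the gene and around it, H4 88-1 and 42MGBA were the higher lines and H4 and 42MGBA 53-1 the lower.

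Outside collagen VI, listed pairs touched starts of both genes at 3 further pairs of members. For COL4A1 and COL4A2 there were 24, with 17 in H4 and 12 in H4 88-1, against 21 in 42MGBA and 10 in 42MGBA 53-1. The outermost starts of these genes, chr13:110959504 and chr13:110958159, are close enough that 1 anchor can touch both. The 24 pairs, of 4.98 to 244 kb, therefore need not join the 2 genes. The strongest reached 5.62, 5.22, 6.78 and 6.44 in those lines. COL3A1 and COL5A2 were joined by 9 pairs, of which 42MGBA listed all 9 and H4 88-1 none. DCN and LUM, the neighbouring genes of decorin and lumican, were joined by 5 pairs that only the 42MGBA lines listed, with a highest strength of 5.86.

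Further matrix genes outside the 40 gave a background of like function. Of 63 such genes 44 had a listed pair. In 42MGBA against H4, 36 of their 545 pairs (6.61%) were called higher, against 2.11% of all pairs. The number called lower was 0, against 1.93% of all pairs, a count by z-score rank and not by a test. In 42MGBA 53-1 against H4 88-1, 31 of 655 (4.73%) were called higher, against 1.92% of all pairs. Those called lower were 3 (0.458%, against 2.09%), all 3 at FBLN1. CCN1, which encodes a matricellular integrin ligand, held 22 and 15 of the higher calls. In H4 88-1 against H4, 23 of 428 pairs (5.37%, against 1.94% of all pairs) were higher, 12 of them at ITGA3. Only 1 (0.234%, against 2.17%) was lower, at ITGA6. In 42MGBA 53-1 against 42MGBA, 6 of 605 (0.992%, against 1.61% of all pairs) were higher, all at COL14A1. Lower were 4 (0.661%, against 2.45%), all at FBLN1. By mean strength, 14 of 33 of these genes had both 42MGBA lines above, against 31.9% of all protein-coding genes. Both H4 lines were above at 4, against 31.2% of all genes, and 15 overlapped.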

How the data were processed

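The deposited loop strengths are signal values that the authors made from Hi-C reads (Arima Hi-C+ kit, 2 replicates in each of 4 lines): reads were trimmed to 36 bp and aligned to hg19 with bowtie, biases were corrected with HiCorr, replicates were pooled, pairs of anchors of about 5 kb were enhanced with LoopEnhance of DeepLoop, and the 300000 strongest were kept. Versions of these tools are not given in the sources used here. DeepLoop is a trained network that smooths and denoises contact maps, so neighbouring pairs share signal. Lengths were computed from the anchor coordinates as the distance between anchor midpoints, and the deposited gap between anchors was not used. The labels tie each list to its line. The 12 RNA-seq samples of the series were not analysed here.

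Starts of all transcripts of protein-coding genes came from GENCODE release 44 on hg19, and many lie inside a gene. The 100000 strongest pairs of 2 lists were merged, absent pairs took the lowest strength of the list, and residuals of a regression through the origin were scored. Neighbouring calls were joined within 10 kb. Genes named with values were those with a called pair. Also named were the 5 highest and 5 lowest medians among genes with at least 3 merged pairs in a comparison. Genes listed nowhere or in 1 system were named too, as were the strongest pairs and pairs touching starts of 2 members. Some further members are named to complete a role. Members and lists were chosen with earlier results of these data known. Analyses ran in Python 3.11.15 with numpy 2.4.6 and pandas 2.3.3, figures in matplotlib 3.10.9, and the scoring was tested on simulated data. Alternatives covered the regression, the score, the number of pairs, absent pairs, loop length, starts, scaling and joining.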

Additional observations from a re-analysis of the deposited data

Results flagged for a closer look

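FN1 and TIMP3 drew attention because their pairs leaned one way after STAG2 correction in the H4 system and the other way in the 42MGBA system. For FN1 the median log2 ratio was 0.47 over 39 pairs in H4 88-1 against H4 and -0.50 over 48 pairs in 42MGBA 53-1 against 42MGBA, a difference of -0.97. For TIMP3 the medians were 0.27 and -0.60, a difference of -0.88. With 1 pooled list per line neither difference was tested. Pairs near both genes that did not touch their starts leaned the same way as the genes, and any part of copy number or locus-wide contact in these values was not tested.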

How the results depend on the processing

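No paired analysis was possible because the 2 Hi-C replicates of each line were pooled by the authors, and for the same reason no replicate could be left out. Counts of matrix pairs follow the order H4 88-1 against H4, 42MGBA 53-1 against 42MGBA, 42MGBA against H4, and 42MGBA 53-1 against H4 88-1, and shares are given beside those of all pairs. With all 300000 pairs of each list, higher calls were 82 (3.92% against 2.98% of all pairs), 219 (5.19% against 2.55%), 264 (7.23% against 3.01%) and 333 (8.42% against 2.79%). Lower calls were then 65 (3.11% against 3.11%), 141 (3.34% against 3.46%), 46 (1.26% against 2.92%) and 15 (0.379% against 3.15%). Joined into places, higher calls were 6, 13, 12 and 14 and lower calls 4, 5, 3 and 1. A regression with an intercept gave lower calls of 4 (0.576% against 1.35%), 9 (0.504% against 1.73%), 0 (against 0.19% of all pairs) and 0 (against 0.178%), and 64 higher calls in the 42MGBA pair (3.59% against 2.58%). A score on the log2 ratio gave 7, 15 and 10 lower calls in the first 3 comparisons (1.01%, 0.841% and 0.743%, against 1.86%, 2.25% and 1.33%), and in the H4 pair 4.03% were higher, against 2.01%. Without absent pairs, higher calls between systems were 50 (6.68% against 2.59%) and 55 (6.49% against 2.32%). Within 20 bins of loop length, higher calls in the H4 pair were 13 (1.87% against 2.20%), lower calls in the 42MGBA pair 80 (4.48% against 2.53%), and lower calls between corrected lines 5 (0.317% against 2.08%). With starts of protein-coding transcripts only, higher calls between systems were 44 (5.51%) and 54 (5.71%) and lower calls in the isogenic pairs 9 (2.06%) and 20 (1.87%). With the outermost start only, chosen after seeing the data, these were 42 (7.14%), 48 (7.28%), 9 (2.69%) and 18 (2.42%), and the shares of all pairs did not change with the starts.

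The median log2 ratio of 42MGBA against H4 was 0.31 with all pairs, 0.39 without absent pairs and 0.36 within length bins, and that of 42MGBA 53-1 against H4 88-1 was 0.13, 0.20 and 0.32. In the H4 pair it was -0.0042 within length bins. In the 42MGBA pair it was -0.034 with all pairs, and 0.12 once the median of all merged pairs, -0.11, was subtracted.

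Some gene medians changed sign. With all pairs merged, COL1A1 (42MGBA against H4) was 0.015, LAMB1 (H4 pair) 0.021, and TNC 0.12 in 42MGBA against H4 and 0.17 in the H4 pair. With protein-coding starts TNC was 0.65 and 0.29, and COL1A2 in the H4 pair 0.13. With the outermost start COL1A2 was 0.13 and COL6A3 -0.061 in the H4 pair, TGFBI in the 42MGBA pair -0.45, and TNC in 42MGBA against H4 0.65. POSTN was -0.054 in 42MGBA against H4 after subtraction of the overall median and 0.053 between corrected lines within length bins, where TIMP3 was 0.0042. The cause of these changes was not tested. Of the other gene medians recomputed, 136 stayed within 0.1 and 77 moved further without changing sign. Reads per pair are unknown, so no counting error can be given.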
